A study of Drosophila melanogaster with 4 samples.

Results

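The genes described here are 10 genes of the piRNA pathway and the germline, *piwi*, *aub*, *AGO3*, *vas*, *armi*, *zuc*, *spn-E*, *squ*, *krimp* and *nos*. They were chosen by name, and all 10 were found among the 13568 named genes of the data. Expression was measured in whole larvae of *Drosophila melanogaster* at the third instar by sequencing RNA depleted of rRNA. There were 4 libraries, 2 from the wildtype strain Oregon R and 2 from the HP1a mutant. The mutant larvae carried the alleles 04 and 05 of *Su(var)205*, the gene that encodes Heterochromatin Protein 1a, over each other. They were recognised by the absence of the GFP that marks the balancer chromosomes of their parents. In this allele combination the only source of HP1a is the egg, as protein or mRNA of maternal origin, so residual HP1a may remain. Stocks were kept on cornmeal medium at 25°C and 70% humidity. Sex was not separated in either genotype as far as the labels state.

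piRNAs are small RNAs that guide the PIWI proteins, a clade of the Argonaute family, to transposon transcripts in the gonads. Long precursor RNAs are cut at the surface of mitochondria, trimmed and loaded onto Piwi, Aubergine or Argonaute 3. Aubergine and Argonaute 3 then cut transposon RNA and piRNA precursors in turn, in the nuage, a perinuclear structure of germ cells. Piwi enters the nucleus and directs silencing of transposon loci, a step in which HP1a takes part. In larvae the germ cells sit in the small gonads, which contribute little to the RNA of the whole animal.

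The values are FPKM (fragments scaled to transcript length and to the mapped fragments of the library), which Cufflinks calculated for each RefSeq transcript. They were summed here per gene. The bounds deposited with each value imply between 7320733 and 7656033 fragments per library, summed only over transcripts with the Cufflinks status OK. *Su(var)205* had 125 and 137 FPKM in wildtype against 27.8 and 20.2 FPKM in the mutant, and it fell (log2 fold change -2.42, SE 0.22, adjusted p = 0.00275 in limma). The median FPKM over all genes was 8.21 and 8.93 for wildtype but 4.08 and 3.38 for mutant larvae, and over the genes tested the log2 fold change had a median of -0.84. The genotypes also differed in stage markers. The 5 salivary glue genes *Sgs3*, *Sgs4*, *Sgs5*, *Sgs7* and *Sgs8*, which larvae switch on late in the third instar, summed to 49630 and 53120 FPKM in wildtype and to 74.9 and 484 FPKM in the HP1a mutant, and all 5 fell. Of the fat body storage proteins *Lsp1alpha* and *Lsp2*, *Lsp1alpha* rose, from 1088 and 853 FPKM to 5745 and 6949 FPKM. *Lsp2* was lower without overlap, at 9321 and 7758 FPKM against 2727 and 4433, and did not pass (log2 fold change -1.29, adjusted p = 0.0208 in limma). The part of stage in the differences below was not tested.

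In the HP1a mutant 7 of the 10 genes had lower FPKM in both libraries than in either wildtype library, and *vas* had higher FPKM in both. The levels of *aub* and *nos* overlapped between the genotypes. Among all 13177 genes with any FPKM, 66.0% were lower without overlap and 15.4% were higher, so the count of 7 is near what the whole transcriptome gave. The largest ratios of mean FPKM were those of *AGO3* (5.77-fold lower), *krimp* (5.65-fold lower) and *armi* (4.42-fold lower), while the median gene was 1.99-fold lower. In RNA from whole larvae, fewer cells of a type and less RNA per cell cannot be told apart.

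**Figure D1:**
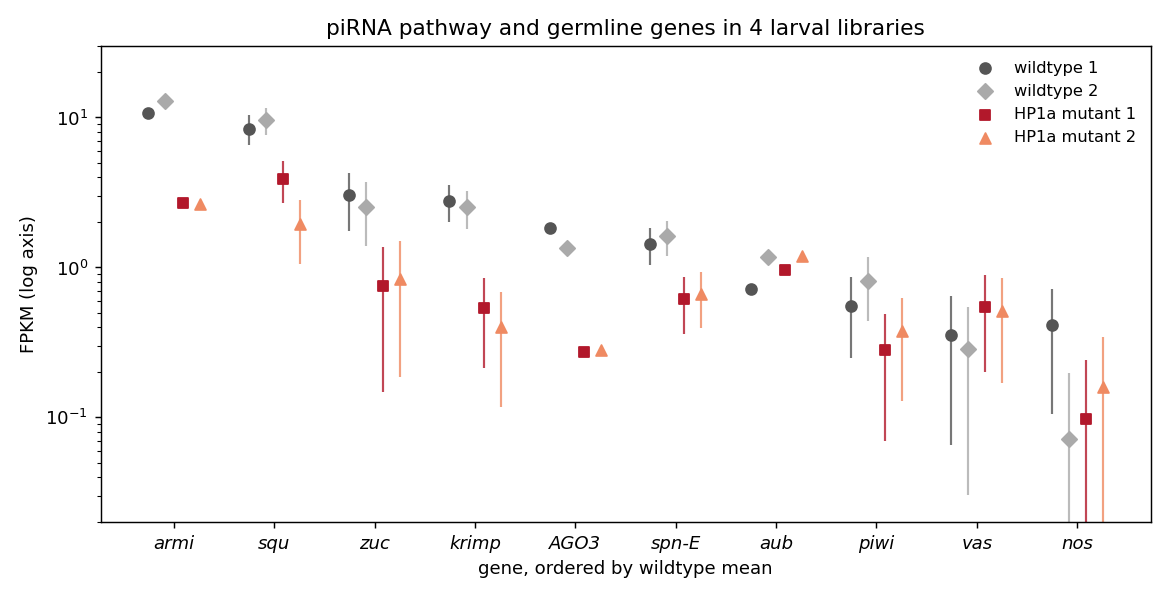
FPKM of each of the 10 genes (log axis) in the 4 libraries, with 1 point per library; for genes with a single annotated transcript vertical bars give the lower and upper bounds from Cufflinks. *armi* and *squ* stand highest in wildtype, at 8.42 to 12.9 FPKM, and *vas* is the gene whose HP1a mutant libraries both lie above the wildtype ones.

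In wildtype the order of the levels, in FPKM and therefore per length, ran from *armi* and *squ* through *zuc*, *krimp*, *AGO3* and *spn-E* to *aub*, *piwi*, *vas* and *nos*. Neighbours whose wildtype libraries overlapped were *zuc* with *krimp*, *AGO3* with *spn-E*, *aub* with *piwi*, and *vas* with *nos*. In the HP1a mutant *squ* and *armi* overlapped at the top, and *aub* came next, ahead of *zuc*, *spn-E*, *vas*, *krimp*, *piwi*, *AGO3* and *nos*. There the ranges of *vas* and *krimp* overlapped, as did those of *piwi* and *AGO3*. *AGO3* was thus listed at place 5 in wildtype and 9 in the HP1a mutant, whereas *aub* was listed at place 7 and 3. These places are uncertain, because *AGO3* had a low-data status in both mutant libraries and *aub* in the first wildtype library.

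Most of these genes are scarce in whole larvae. A gene was tested where log2(FPKM + 1) averaged more than 1.4 and Cufflinks gave the status OK in all 4 libraries, which only *armi* and *squ* met. The other 8 lay below this cutoff, and *AGO3* and *aub* also carried a low-data status in some libraries. The test was limma on log2(FPKM + 1), two-sided, with Benjamini-Hochberg adjustment over 9447 genes and an FDR of 0.01. *armi* passed it and *squ* did not. Of all genes tested 34.4% were lower in the HP1a mutant and 6.98% were higher. To place the other 8, the fit was repeated over all 13177 genes with no cutoff and any status, a choice made after the values had been seen. There 4 of the 10 genes were lower, *armi*, *krimp*, *zuc* and *AGO3*, and none was higher, against 24.6% and 4.81% of all genes. The median log2 fold change was -0.82 over the 10 genes and -0.70 over all genes. With any one library left out of this fit 0 of the 10 genes passed, nor did any other gene, although 5692 to 9095 genes had an unadjusted p under 0.05. With the cutoff met in at least 1 genotype, another choice made after seeing the data, *armi*, *krimp* and *zuc* were lower, against 35.1% of all genes lower and 6.68% higher. Adjusted p-values given for single genes below are from the limma fit over all 13177 genes unless stated otherwise. Its fold changes are differences of log2(FPKM + 1) and understate the ratio of low genes.

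Of the genes of the 3 PIWI proteins, only *AGO3* passed in the fit over all genes. Whether the 3 genes differ from each other was not tested. *piwi* (chromosome 2L, 10982205 to 10987416 in genome Release 5) encodes the nuclear PIWI protein, which also acts in somatic cells of the gonad. It had 0.557 and 0.806 FPKM in wildtype and 0.280 and 0.380 FPKM in the HP1a mutant. Both mutant values were below both wildtype values, but they rest on an implied 7.1 and 9.2 fragments against 13.0 and 19.3, and the bounds of the 2 genotypes overlap. The mean was 2.07-fold lower, close to the median gene, and did not pass the test (log2 fold change -0.34, SE 0.13, adjusted p = 0.0914).

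*aub* lies near *piwi* on 2L (10997819 to 11001489) and encodes Aubergine, the cytoplasmic PIWI protein of the nuage that mostly carries antisense piRNAs. It had 0.718 and 1.17 FPKM in wildtype and 0.967 and 1.19 FPKM in the HP1a mutant. The genotypes overlapped, with a mean 1.15-fold higher in the mutant (log2 fold change 0.11, SE 0.18, adjusted p = 0.628). The first wildtype library, the lowest of the 4, is also the one in which both *aub* transcripts had a low-data status, so its value is uncertain.

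*AGO3* (3L, 23547715 to 23682722) encodes the partner of Aubergine, which mostly carries sense piRNAs. It had 1.83 and 1.36 FPKM in wildtype and 0.271 and 0.282 FPKM in the HP1a mutant. The genotypes did not overlap, and *AGO3* fell (log2 fold change -1.02, SE 0.15, adjusted p = 0.00863). All 4 of its transcripts had a low-data status in both mutant libraries, so the ratio of 5.77 is imprecise. For each transcript the upper bounds in both mutant libraries lay above its wildtype values, so the bounds do not secure the direction. The gene spans the longest stretch of the 10. *AGO3* was listed above its partner *aub* in both wildtype libraries and below it in both mutant libraries. This order was not tested, 3 of the 4 comparisons include a low-data value, and in the second wildtype library the levels were close.

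*armi* (3L, 3461323 to 3466314) encodes Armitage, an RNA helicase needed for piRNA production that carries precursors between nuage-like bodies and mitochondria. It had 10.7 and 12.9 FPKM in wildtype and 2.68 and 2.66 FPKM in the HP1a mutant, from 340 and 420 implied fragments against 92 and 88. This was the best measured of the 10 genes, and it fell 4.42-fold. In the test with the cutoff its log2 fold change was -1.80 (SE 0.17, adjusted p = 0.00297 in limma). The call ended when either wildtype library was left out, with an adjusted p of 0.0359 and 0.0450, although the log2 fold change stayed at -1.92 and -1.67. Both annotated transcripts were lower. The more abundant one made up 75.5% and 87.8% of the *armi* FPKM in wildtype against 75.7% and 75.2% in the HP1a mutant, so the share was much the same in 3 of the 4 libraries.

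*spn-E* (3R, 11663159 to 11670138) encodes Spindle-E, a helicase with a Tudor domain that acts in the nuage. It had 1.43 and 1.61 FPKM in wildtype and 0.612 and 0.661 FPKM in the HP1a mutant. The replicates lay close together, and the upper bounds of both mutant values were below the lower bounds of both wildtype values. With a mean 2.40-fold lower, *spn-E* did not pass the test (log2 fold change -0.62, SE 0.13, adjusted p = 0.0181).

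*vas* (2L, 15061656 to 15074311) encodes Vasa, the DEAD-box helicase that marks germ cells and on which the nuage is built. It had 0.354 and 0.288 FPKM in wildtype and 0.546 and 0.510 FPKM in the HP1a mutant. *vas* was thus the only one of the 10 with both mutant libraries above both wildtype ones, and its mean was 1.64-fold higher. The values come from an implied 6 and 5 fragments against 10 and 9, their bounds overlap, and *vas* did not pass the test (log2 fold change 0.21, SE 0.10, adjusted p = 0.142).

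*krimp* (2R, 12125608 to 12128222) encodes Krimper, a Tudor domain protein of the nuage that binds Aubergine and Argonaute 3. It had 2.78 and 2.51 FPKM in wildtype and 0.534 and 0.403 FPKM in the HP1a mutant, from 53.0 and 49.0 implied fragments against 11.0 and 8.0. The genotypes were far apart relative to the replicates, and *krimp* fell (log2 fold change -1.31, SE 0.14, adjusted p = 0.00547). It had almost the same level as *zuc* in wildtype but was lower than *zuc* in both mutant libraries.

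*zuc* (2L, 11988735 to 11989861) encodes Zucchini, the mitochondrial nuclease that cuts piRNA precursors. It had 3.02 and 2.55 FPKM in wildtype and 0.757 and 0.843 FPKM in the HP1a mutant. *zuc* fell, with a mean 3.48-fold lower (log2 fold change -1.07, SE 0.15, adjusted p = 0.00854). The gene is short, so only an implied 6.2 and 6.6 fragments stood behind the mutant values.

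*squ* (2L, 16680056 to 16681653) encodes Squash, a nuage protein required for transposon silencing in the germline. It had 8.42 and 9.60 FPKM in wildtype and 3.90 and 1.94 FPKM in the HP1a mutant. The 2 mutant libraries differed from each other by more than those of any other gene among the lower 7, in FPKM. In the test with the cutoff *squ* was 3.08-fold lower and missed the threshold (log2 fold change -1.40, SE 0.30, adjusted p = 0.0162 in limma). Without the first HP1a mutant library its adjusted p was 0.00480 in limma, with the lone mutant library assumed to vary like the wildtype ones. It was 0.0131 without the second mutant library, 0.0867 and 0.106 without the first and second wildtype library, and 0.108 after scaling the libraries to the same median.

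*nos* (3R, 14982962 to 14985924) encodes Nanos, a translational repressor that maintains germ cells and is not itself a piRNA factor. It had 0.413 and 0.0714 FPKM in wildtype and 0.0980 and 0.159 FPKM in the HP1a mutant. Both mutant values fell between the wildtype ones, and no value rests on more than an implied 7.2 fragments. No difference in *nos* was detectable at this depth (log2 fold change -0.13, SE 0.17, adjusted p = 0.547).

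**Figure D2:**
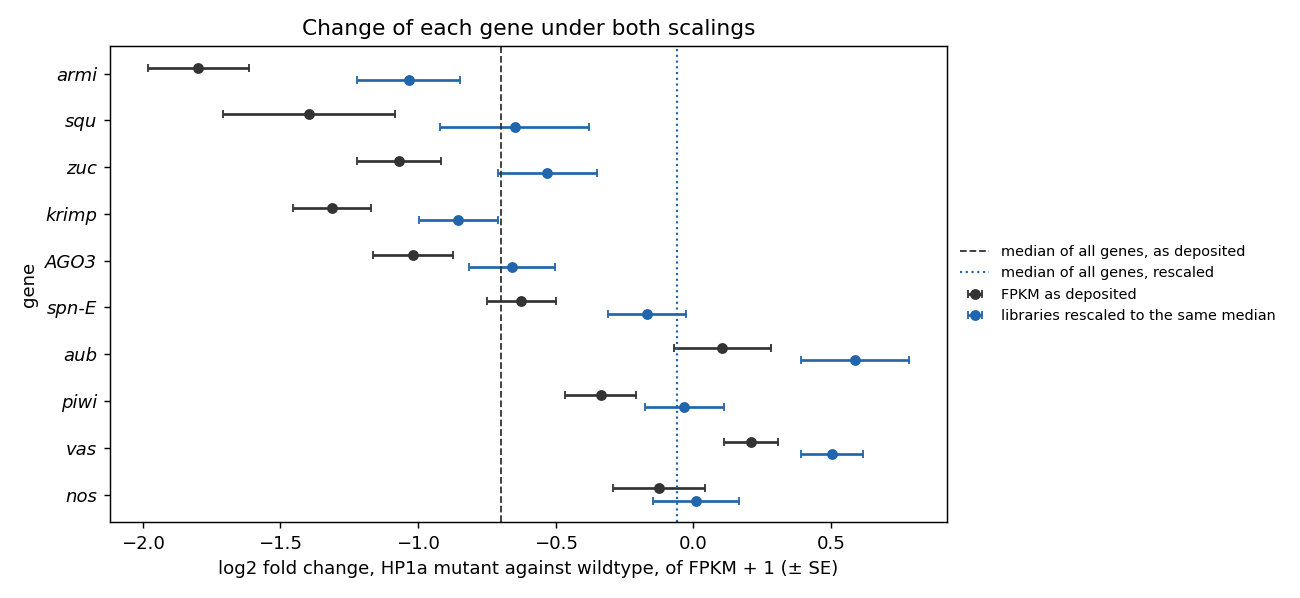
Log2 fold change of FPKM + 1, HP1a mutant against wildtype, for each of the 10 genes in the fit over all genes, as deposited (black) and after the libraries were scaled to the same median (blue). Points are limma estimates with bars of ± 1 SE, and vertical lines mark the median of all genes (-0.70 and -0.06); *armi* lies lowest under both scalings and *vas* and *aub* lie above 0 under both.

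Because the median gene was itself lower in the HP1a mutant, the libraries were also scaled to the same median. Then 6 of the 10 genes were lower without overlap (40.1% of all genes were), *aub* and *vas* were higher without overlap (33.3% of all genes were), and *piwi* and *nos* overlapped. *AGO3* was 3.03-fold lower, *krimp* 3.01-fold, *armi* 2.32-fold, *zuc* 1.82-fold, *squ* 1.66-fold and *spn-E* 1.25-fold, each nearer to equality than as deposited. The mean of *vas* was 3.11-fold higher and that of *aub* 2.22-fold higher. None of the 10 passed the FDR after scaling in the fit over all genes in limma. An unadjusted p under 0.05 was found for 6 of the 10, beside 6512 of all 13177 genes. In that fit 6.41% of all genes were lower and 7.85% higher. In the fit with the cutoff, which *armi* did not pass after scaling, 22.5% of all genes passed in either direction, 946 lower and 1177 higher. Over all genes the adjusted p-values were lowest for *krimp* (0.0172), *armi* (0.0198), *vas* (0.0319) and *AGO3* (0.0371) in limma. The means of *aub* and *vas* were higher in the mutant under both scalings. As deposited, the log2 fold change of *aub* became -0.06 without the first wildtype library, in which *aub* had a low-data status. That of *vas* was above 0 in all 7 settings, at 0.17 or more. *nos* had nearly equal means after scaling (1.01-fold higher, log2 fold change 0.01, SE 0.16) and gives no direction. The median log2 fold change of the 10 genes was -0.35 after scaling, against -0.06 over all genes.

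The rank of a gene within its own library does not depend on the scaling. *armi* stood at percentiles 56.4 and 59.5 of all genes in wildtype and at 42.8 and 45.9 in the HP1a mutant. *krimp* moved from 29.1 and 26.3 to 22.3 and 21.4, and *squ* from 50.7 and 51.8 to 49.2 and 41.0. *AGO3*, with its low-data status in the mutant, moved from 24.4 and 20.9 to 16.4 and 18.7. *vas* moved the other way, from 12.9 and 11.3 to 22.5 and 23.4, and *aub* from 17.0 and 19.9 to 29.4 and 33.9. The ranks of *vas* rest on at most an implied 10 fragments per library. The ranks of *piwi* overlapped, at 15.4 and 17.1 in wildtype and 16.6 and 20.9 in the mutant. *spn-E* was lower in FPKM yet slightly higher in rank, at 22.1 and 22.3 against 23.9 and 26.3. The ranks of *zuc* overlapped, at 30.2 and 26.5 in wildtype and 26.5 and 29.3 in the mutant, although its FPKM fell.

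**Figure D3:**
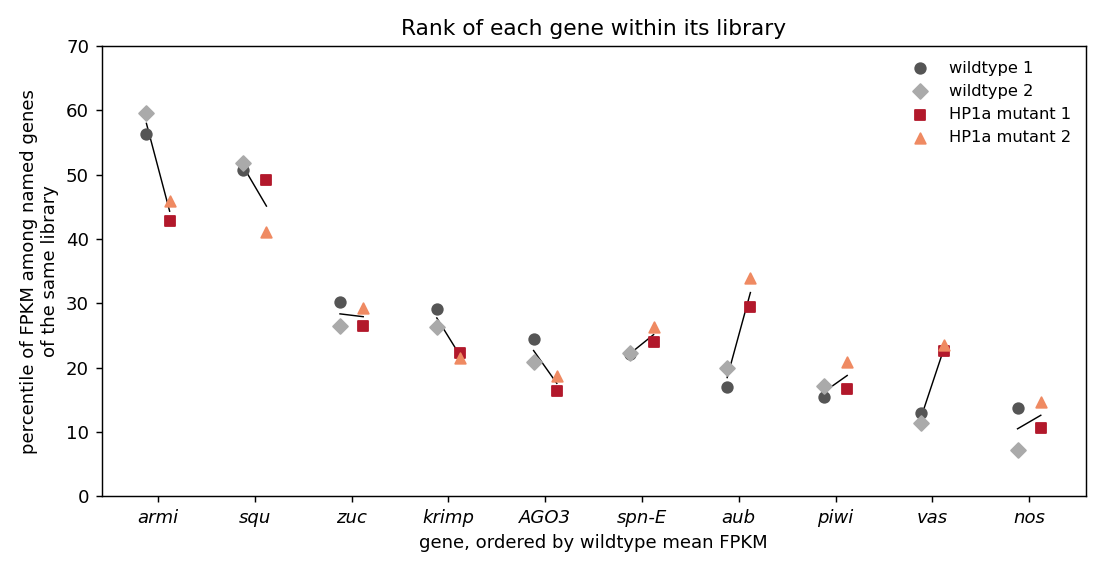
Percentile of each of the 10 genes among all named genes of the same library, with 1 point per library and a line joining the genotype means. *armi* drops from 56.4 and 59.5 in wildtype to 42.8 and 45.9 in the HP1a mutant, whereas *aub* and *vas* move up.

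*vas* marks germ cells, so each gene was also set against *vas* within its library, as a log2 ratio of FPKM. *AGO3* was 2.37 and 2.24 above *vas* in wildtype, but at -1.01 and -0.85 relative to it in the HP1a mutant. *krimp* went from 2.97 and 3.12 to -0.03 and -0.34, and *armi* from 4.92 and 5.48 to 2.29 and 2.38. For every gene that was lower without overlap the ratio to *vas* had to be lower as well, because *vas* was higher, so these ratios add no separate evidence of a difference. *aub* (1.02 and 2.02 against 0.83 and 1.23) and *nos* overlapped. The low fragment numbers of *vas* enter every one of these ratios. With 2 libraries per genotype an exact permutation test could not go below p = 0.33, so no test was run on the ratios.

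Of the other germ cell markers none was higher. Over *vas*, *nos*, *bam*, *zpg*, *ovo* and *stil*, 3 of 6 were lower without overlap, *vas* was higher and 2 overlapped, beside 66.0% of all genes lower and 15.4% higher. Their summed level was 9.93 to 10.8 FPKM in wildtype and 2.03 to 2.87 FPKM in the HP1a mutant. Most of the wildtype sum was *ovo* (7.94 and 7.84 FPKM against 1.67 and 0.969), a transcription factor also used outside the germline, which lacked the status OK in 1 library. Without *ovo* the other 5 summed to 2.88 and 2.09 FPKM against 1.21 and 1.06. None of the 6 was at 0 in all libraries, and all 6 lay below the cutoff or lacked the status OK. How far the number of germ cells takes part in the levels of the piRNA genes was not tested.

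For 6 of the 10 genes another annotated gene overlaps the locus, so fragments could have been divided between them; whether the counting used strand is not given in the sources used here. *squ* lies within *grp*, the gene of the checkpoint kinase Grapes, which had 54.8 and 50.9 FPKM in wildtype against 13.2 and 9.90 in the HP1a mutant. *squ* therefore sits in a more abundant gene with a difference of the same direction. *zuc* overlaps *CG34163* (26.5 and 25.9 against 19.4 and 8.32 FPKM) at one end. *vas* contains *solo*, at no more than 0.0496 FPKM in any library, and *vig* (42.6 and 44.4 against 66.0 and 22.4 FPKM). *vig* was high in one mutant library and low in the other, whereas *vas* was alike in both. *piwi* overlaps *SCAR* (25.9 and 25.0 against 9.28 and 12.5 FPKM), and *spn-E* contains *Pbp45* (3.4 and 2.9 against 2.2 and 1.5 FPKM). *SCAR* and *Pbp45* were thus also more abundant genes that were lower in the mutant. *nos* overlaps *CG11779* (12.5 and 14.1 against 13.7 and 7.25 FPKM) and *Nsun5* (15.6 and 17.2 against 9.62 and 8.85 FPKM). A transcript without a named gene also overlaps *nos* and lay above it in each library (0.932 and 1.95 against 0.641 and 0.696 FPKM). No other gene overlaps *aub*, *AGO3*, *armi* or *krimp*, so the values of *armi* and *krimp* do not depend on such a division.

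**Figure D4:**
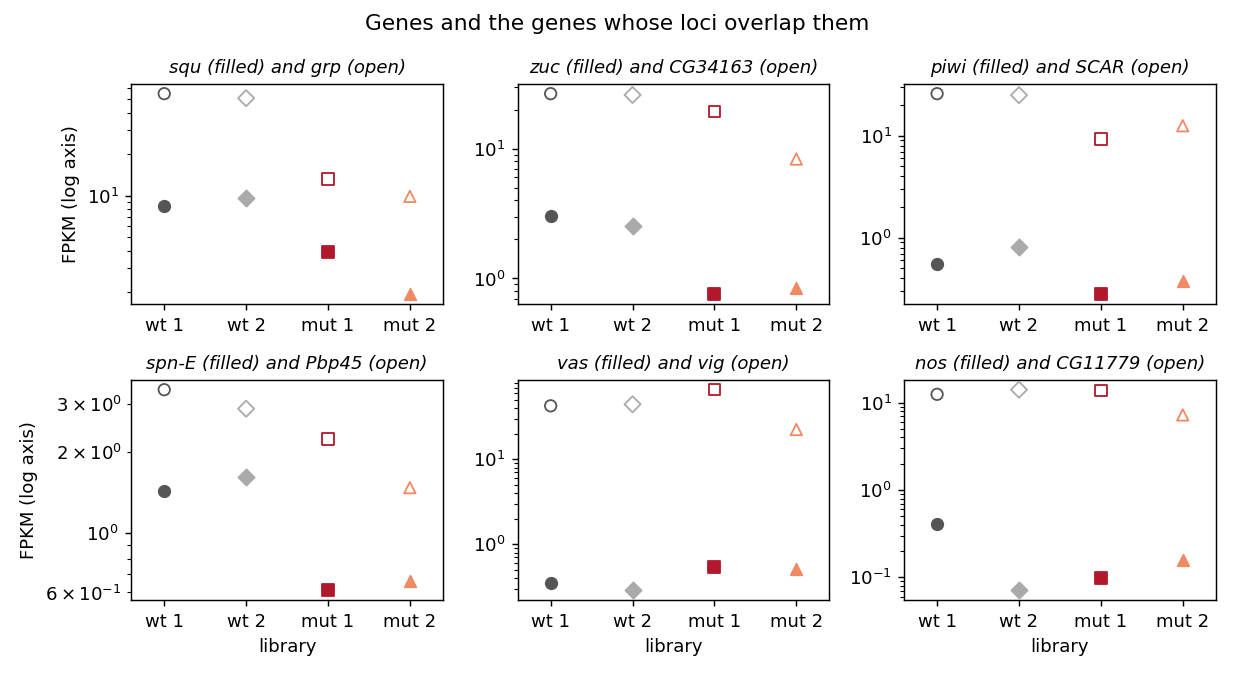
FPKM (log axes that differ between panels) of 6 of the 10 genes (filled) and of 1 annotated gene that overlaps each (open), with 1 point per library (wt, wildtype; mut, HP1a mutant). *grp*, around *squ*, is lower in both mutant libraries, while *vig*, within *vas*, is high in one and low in the other.

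Further genes of the same pathway were also mostly lower. Among 17 other genes of piRNA biogenesis and the nuage, 16 were lower without overlap, beside 66.0% of all genes. 11 met the cutoff, of which 5 fell, beside 34.4% of all genes, and none rose, with a median log2 fold change of -1.34 against -0.84 over all genes. *vret*, which encodes the Tudor protein Vreteno, had 3.86 and 4.93 FPKM in wildtype against 0.753 and 0.747 in the HP1a mutant (log2 fold change -1.62, SE 0.21, adjusted p = 0.00459 in limma with the cutoff). *shu*, which encodes the cochaperone Shutdown that helps to load PIWI proteins, was 4.18-fold lower, and *daed*, whose product Daedalus works on the mitochondrial surface with Armitage, was 3.36-fold lower. After scaling to the same median none of the 11 passed in limma. An unadjusted p under 0.05 was found for 5 of the 11, beside 5189 of all 9447 genes. The lowest adjusted p was that of *papi*, which was higher (log2 fold change 1.09, adjusted p = 0.0159 in limma). *vret* came next and was lower (log2 fold change -1.05, adjusted p = 0.0175 in limma).

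The nuclear arm of the pathway was mostly below the cutoff. Of 10 genes for nuclear silencing and piRNA cluster transcription, 2 were tested in limma. Neither passed, and 1 had an unadjusted p under 0.05, beside 6723 of the 9447 genes tested. Their median was -0.59, nearer to 0 than the -0.84 of all genes. Over the 10, 7 were lower without overlap, close to the 66.0% of all genes. Of 17 other germline genes 12 were lower without overlap, 1 was higher and 4 overlapped, beside 66.0% of all genes lower and 15.4% higher. Of the 17, 6 were tested and 3 fell, beside 34.4% of all genes tested. These were *exu* (55.7 and 65.8 against 15.4 and 10.8 FPKM) and *stau*, both known for localising maternal RNAs, and *Rbfox1*, an RNA-binding protein that is also used in nerve and muscle. Of the 6, only *exu* still passed after scaling to the same median (log2 fold change -1.26, adjusted p = 0.00816 in limma). In that fit 22.5% of all genes passed in either direction.

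Small RNA genes that act in every cell were lower too. All 10 genes of the miRNA and siRNA machinery were lower without overlap, beside 66.0% of all genes. Of the 10, 5 fell, beside 34.4% of all genes, with a median of -1.03 against -0.84. *Dcr-2*, the Dicer of the siRNA pathway, had 51.6 and 46.8 FPKM in wildtype against 6.32 and 6.51 in the HP1a mutant, a 7.67-fold difference that exceeds that of each piRNA gene among the 10. *AGO1*, the Argonaute of miRNAs, and *gw*, its partner GW182, were 3.36-fold and 3.03-fold lower. After scaling 1 of the 10 passed, *Dcr-2* (log2 fold change -1.90, adjusted p = 0.00382 in limma). Of all 9447 genes 946 were then lower and 1177 higher.

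Most markers of other cells of the gonad were lower as well. Of 17 spermatocyte and spermatid genes all were lower without overlap (66.0% of all genes were), and 8 of the 12 tested fell (34.4% of all genes did), with a median of -1.92 against -0.84. Their summed level was 476 and 567 FPKM in wildtype and 65.7 and 60.1 FPKM in the HP1a mutant. *Mst87F*, a sperm tail protein, was 10.9-fold lower and *betaTub85D*, the testis tubulin, 9.61-fold lower, and 4 of the 12 passed after scaling, when 22.5% of all genes passed in either direction. Of 7 genes of the gonad soma, most of which are also used elsewhere, 5 were lower without overlap, near the 66.0% of all genes, and *tj* and *upd1* overlapped. Of the 7, 3 were tested and all 3 fell, beside 34.4% of all genes tested. After scaling 2 of the 3 passed, *Wnt2* and *eya*, when 22.5% of all genes passed in either direction. *Wnt2* had 6.46 and 5.89 FPKM in wildtype against 0.223 and 0.174 in the HP1a mutant, and *eya* and *esg* were 11.8-fold and 7.56-fold lower. The male RNAs *roX1* and *roX2*, which mark the share of males, fell 2.78-fold and 2.60-fold and did not pass after scaling. The part of testis content and sex in the levels of the piRNA genes was not tested.

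**Figure D5:**
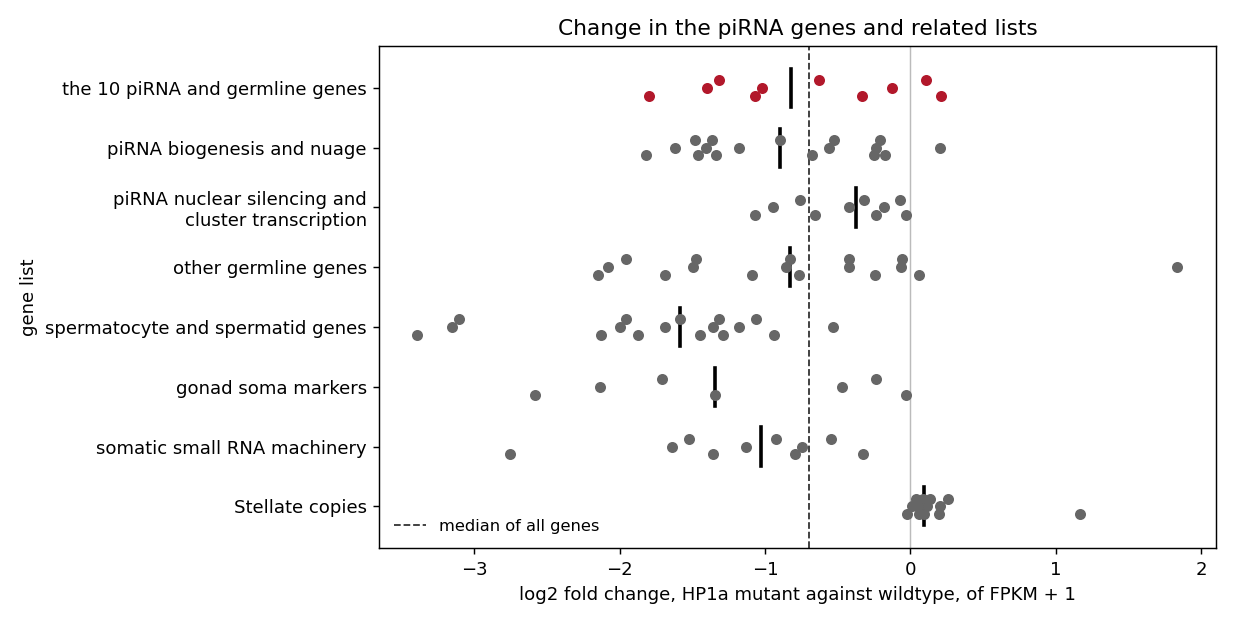
Log2 fold change of FPKM + 1, HP1a mutant against wildtype, in the fit over all genes without a cutoff, with 1 point per gene and a bar at the median of each list. The dashed line marks the median of all genes at -0.70; the list medians run from -1.58 for spermatocyte and spermatid genes through -0.90 for piRNA biogenesis and -0.82 for the 10 genes to 0.10 for the *Stellate* copies.

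*Stellate*, a family of repeated genes, is silenced in the male germline by piRNAs, and this silencing needs *aub*, *spn-E* and *armi*. The 13 copies measured summed to 0.700 and 1.4 FPKM in wildtype and to 4.61 and 2.81 FPKM in the HP1a mutant. None met the cutoff, 4 were higher without overlap (15.4% of all genes were) and 9 overlapped. 10 of the 13 lacked the status OK in 3 or 4 libraries. The copies are nearly identical, so their fragments cannot be assigned with certainty. The copy with the highest level in the mutant, *SteXh:CG42398*, was singled out after its values were seen. It had 0.0995 and 0.600 FPKM in wildtype and 1.91 and 2.04 FPKM in the HP1a mutant, from at most 7.1 implied fragments. Without this copy the others summed to 0.600 and 0.80 FPKM in wildtype and to 2.70 and 0.771 FPKM in the HP1a mutant, so the second mutant library was then not higher.

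The genes whose profile over the 4 libraries was most like that of *vas* and *piwi* were sought among 9445 tested genes, by Euclidean distance of centred log2(FPKM + 1). Nearest to *vas* were *Qsox1*, *CG11426*, *Pmm2*, *Mtpbeta* and *Irk1*, at distances of 0.034 to 0.057. On this scale the pseudocount shrinks the 1.64-fold difference of *vas* to 0.21, so genes at higher levels with smaller ratios come near it, and the match is not one of ratios. *CG11426* had 8.80 and 8.37 FPKM in wildtype and 9.89 and 9.91 FPKM in the HP1a mutant. Nearest to *piwi* were *CG4553*, *Mgat2*, *Gos28*, *whd* and *AstA*, at 0.041 to 0.059. Each distance rests on the same 4 libraries, and no test was made of it.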

How the data were processed

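rRNA-depleted RNA of 2 wildtype and 2 HP1a mutant samples, described as biological duplicates, was sequenced by the authors on an Illumina instrument. The authors deposited FPKM per RefSeq transcript with bounds and a status. The submitters' processing notes name TopHat and Cufflinks, with no version given in the sources used here. Loci are those of genome Release 5. Names came from RefSeq on Release 6, used for names only, and 1220 of 22608 transcripts had no gene there and were left out.

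FPKM were summed per gene. Genes with a mean log2(FPKM + 1) above 1.4 and status OK in all libraries were tested with limma 3.58.1 in R 4.3.3, with a variance trend, and adjusted by Benjamini-Hochberg (FDR 0.01). The p-values measure only the spread between these libraries. Fragment numbers were derived from the bounds. Below 200 fragments, and where no other transcript shared the locus, 94.8% to 96.1% of these numbers per library were whole within 0.02. They cover counting error only. The members, lists and tests were chosen with earlier results of these data known. All 10 members were named, with up to 3 genes per list that had the largest change among those past the FDR without overlap, the 5 nearest profiles of *vas* and *piwi*, overlapping genes and *Su(var)205*. The steps were tested on simulated data. Values were computed in Python 3.11.15 with numpy 2.4.6 and pandas 2.3.3, and plots were drawn with matplotlib 3.10.9. Pseudocount, filter, status, scaling, transcript choice, variance trend, replicate block and leaving out each library were the alternatives. Sequences of the members were not analysed here.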

Additional observations from a re-analysis of the deposited data

How the results depend on the processing

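The number of the 10 genes that passed as lower was 1 of 2 tested with the cutoff (*armi*), beside 3249 of all 9447 genes. It was 3 of 8 tested with no filter on low values, beside 3112 of 12175 genes. It was 0 of 2 when the libraries were scaled to the same median or quantile normalized, beside 946 and 901 of 9447 genes. With single libraries left out the log2 fold change was -1.92 to -1.67 for *armi* and -1.77 to -1.03 for *squ*. Leaving out a mutant library also changed the members tested, to 4. Without the first or second wildtype library 0 genes of any kind passed in limma, while 4476 and 4351 had an unadjusted p under 0.05. Alternatives chosen after seeing the data gave 3 with the cutoff met in at least 1 genotype, 4 with no filter and any status, 0 with these and scaling, and 0 with these and any library left out. The number that passed as higher was 0 throughout. The median log2 fold change of the members tested was -1.60 with the cutoff, over only 2 genes. It became -1.88 and -0.98 with pseudocounts of 0.1 and 5, against -0.94 and -0.57 over all genes tested. With no filter it was -0.85 over 8 genes, against -0.70. It was -0.84 scaled and -0.57 quantile normalized, against -0.02 and -0.06. With single libraries left out it was -1.70 to -1.18, against -0.99 to -0.77, and it covered 4 genes where a mutant library was left out. It was -1.35, -0.82 and -0.35 under the alternatives chosen after seeing the data, in the order above, and -0.78, -0.86, -0.81 and -0.84 with no filter, any status and 1 library left out (both wildtype, then both mutant libraries). The adjusted p of *armi* with the cutoff in limma ranged from 0.00283 to 0.0450 over the alternatives from the start, and was 0.0122 scaled and 0.0212 quantile normalized. Over all genes 3249 were lower and 659 higher, but 946 and 1177 after scaling and 901 and 1039 after quantile normalization. Same-numbered libraries did not deviate together (correlation 0.0281). With the replicate block 1 of the 10 genes still passed, and 2337 genes were lower and 576 higher. Depth limits *vas*, *nos*, *piwi*, *zuc*, the mutant values of *krimp* and *squ* in the second mutant library, each from at most 22.7 implied fragments, and *AGO3*, whose mutant values have a low-data status.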

Other observations

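*pgc*, a germline gene that keeps transcription off in embryonic germ cells, had 12.5 FPKM in the first HP1a mutant library and 0.588 in the second, against 0.257 and 0.335 in wildtype. It was singled out after its values were seen. It shares its locus with *T3dh*, which had 11.3 and 16.8 FPKM in the mutant.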
